A study of Arabidopsis thaliana with 12 samples.

Results

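The 5 genes described here, AT5G39980, AT3G13150, AT3G26630, AT1G79080 and AT4G14050, encode pentatricopeptide repeat proteins. Each was read by a single probe that lists no other gene, out of 691 genes with such a probe on an array of 3439 probes. They were chosen by their measured change between normal and low CO2, so their differences between the groups are given as a description and without a test. Wild-type Arabidopsis thaliana of ecotype Columbia 0 was compared at normal CO2 (6 samples, day 0 in the titles) and after 48 h in air with 0.003% CO2 by volume (6 samples, day 2 in the titles). All 12 samples were total RNA of that single genotype, and the labels give neither tissue nor plant age nor the value of normal CO2. The comparison asks how transcript levels at low CO2 differ from those at normal CO2.

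Pentatricopeptide repeat proteins form one of the largest protein families of land plants. They are encoded in the nucleus and imported into chloroplasts or mitochondria, where a row of short repeats of about the same length reads single-stranded RNA base by base. Members with plain repeats mostly stabilise, cleave or splice organelle transcripts, and members with extended C-terminal domains mostly direct the editing of single cytidines to uridines. AT5G39980 encodes a chloroplast protein linked to the splicing of plastid introns. AT3G26630 and AT1G79080 encode proteins predicted to enter the chloroplast, with no role given here. AT4G14050, also known as mitochondrial editing factor MEF35, acts in mitochondria. For AT3G13150 no organelle is stated. Its neighbour on the chromosome, AT3G13160, belongs to the same family, and whether its transcript reaches the AT3G13150 probe was not tested.

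Deposited intensities were linear, and each array averaged about 1. Array medians ran from 0.489 to 0.576 at normal CO2 and from 0.343 to 0.373 at low CO2. Fold changes are given as log2 fold changes (low CO2 minus normal CO2) of quantile-normalized values. The median over all probes was -0.05 on this scale and -0.60 on the deposited scale. Whether replicates came from separate plants is not stated, so errors and p-values cover the spread of these 12 samples, part of which may be technical. Day and CO2 level changed together and cannot be told apart. RNA of bulk material also cannot tell fewer cells of a type apart from less RNA per cell. Of the green tissue markers, 1 of 7 was measured, the antenna gene AT2G34420. It was at -0.97 ± 0.19 (SE, log2), limma adjusted p = 0.00178, or 0.0802 with adjacent numbers averaged. With the place of probes in the numbering taken off, as described below, it was at -0.41 (limma adjusted p = 0.0373). Of the root and seed markers 0 of 5 and 0 of 4 were measured, so the tissue could not be checked.

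The 3 genes AT5G39980, AT3G13150 and AT3G26630 were higher at low CO2, and AT1G79080 and AT4G14050 were lower. In none of the 5 did the deposited values of the groups overlap. Of all 3439 probes, 7.24% had no overlap with higher values at low CO2 and 27.3% had none with lower values. The ratio of group means at low over normal CO2 was 7.12 for AT5G39980, 6.41 for AT3G13150 and 2.87 for AT3G26630. At normal over low CO2 it was 8.42 for AT1G79080 and 2.90 for AT4G14050. The genes whose proteins are known or predicted to enter the chloroplast lay on both sides, with AT5G39980 and AT3G26630 higher and AT1G79080 lower. No value of 0 occurred among the 60 values of these genes.

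**Figure D1:**
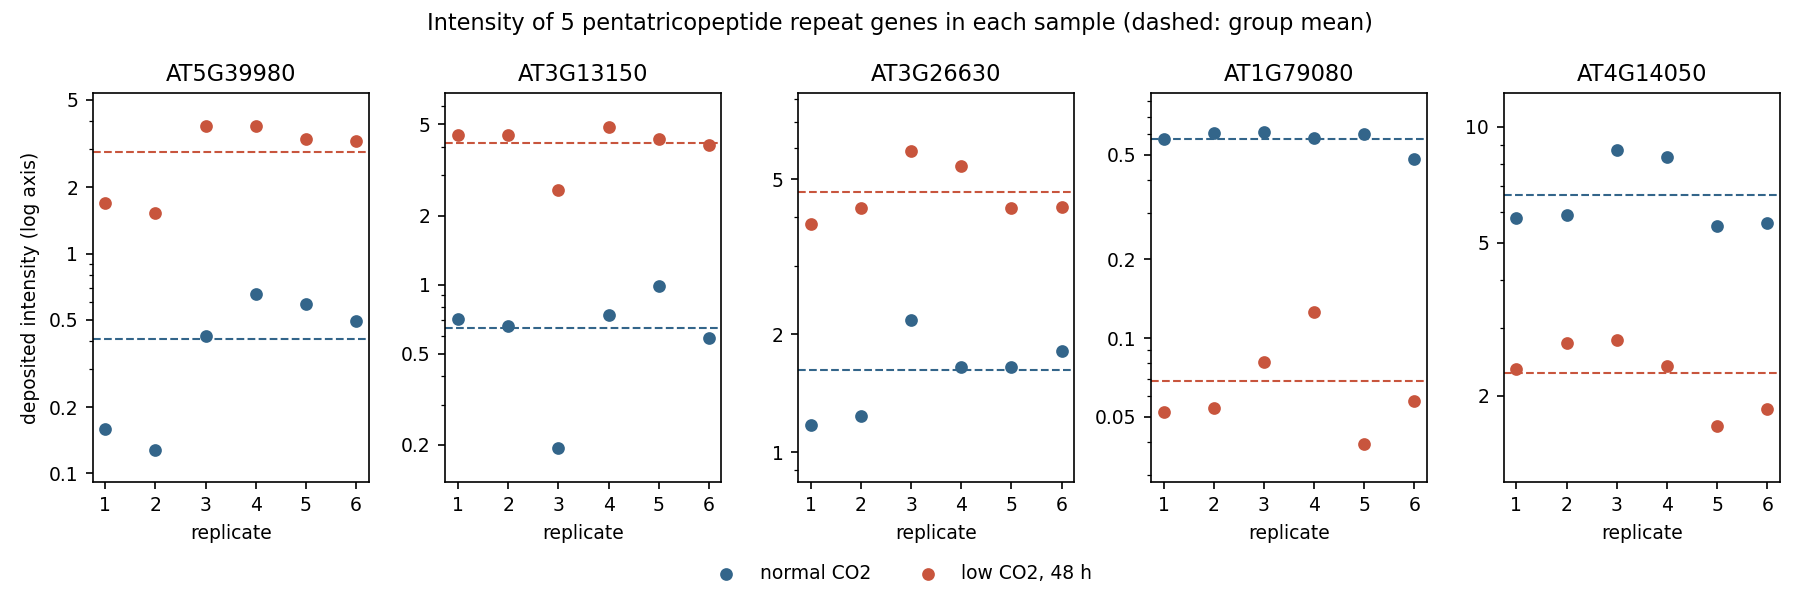
Deposited intensity (vertical log axis, a separate range for each gene) of the 5 genes in replicates 1 to 6, blue for normal CO2 and red for low CO2, with dashed lines at the group means. The colours do not overlap in any panel, and replicates 1 and 2 of AT5G39980 and replicate 3 of AT3G13150 lie low in both groups.

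AT5G39980, the gene of the chloroplast splicing protein, had intensities of 0.128 (lowest), 0.459 (median) and 0.652 (highest) at normal CO2. At low CO2 these were 1.53, 3.28 and 3.82. The lowest low CO2 sample was thus 2.35 times the highest normal CO2 sample. Replicates 1 and 2 stood below the other samples in both groups, at 0.160 and 0.128 against at least 0.423 at normal CO2 and at 1.69 and 1.53 against at least 3.25 at low CO2. The group means were 0.408 ± 0.219 and 2.90 ± 1.03 (SD, n = 6 each), and the log2 fold change was 3.35 ± 0.46 (SE), or 2.99 on the deposited scale. Between samples of the same number the difference ran from 2.75 to 4.05, and its 2 highest values were those of replicates 1 and 2. The mean intensity moved from the 39.3rd percentile of all probes at normal CO2 to the 94.4th at low CO2.

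AT3G13150 had intensities of 0.193 (lowest), 0.685 (median) and 0.985 (highest) at normal CO2 and of 2.58, 4.41 and 4.87 at low CO2. Replicate 3 was the lowest sample of both groups, with 0.193 against 0.586 to 0.985 in the other normal CO2 samples and 2.58 against 4.07 to 4.87 in the other low CO2 samples. The lowest low CO2 sample was nevertheless 2.62 times the highest normal CO2 sample. The means were 0.645 ± 0.259 and 4.14 ± 0.807 (SD, n = 6 each), and the log2 fold change was 2.96 ± 0.32 (SE), or 2.80 on the deposited scale. Within same-numbered samples the difference was 2.38 to 3.68, with replicate 3 at the upper end. Its place in the array went from the 58.0th to the 96.5th percentile.

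AT3G26630, with its predicted chloroplast protein, was already bright at normal CO2, at 1.18 (lowest), 1.65 (median) and 2.18 (highest), and reached 3.83, 4.23 and 5.91 at low CO2. Its groups lay closest to each other, the lowest low CO2 sample being 1.75 times the highest normal CO2 sample. Replicate 3 was the highest and replicate 1 the lowest sample in both groups. The means were 1.62 ± 0.375 and 4.64 ± 0.823 (SD, n = 6 each), and the log2 fold change was 1.61 ± 0.18 (SE), or 1.53 on the deposited scale. In same-numbered samples it was 1.28 to 1.85. A further probe lists AT3G26630 together with AT2G42920, another gene of the family, so its signal cannot be given to either. That probe was dimmer, at 0.241 ± 0.117 and 0.399 ± 0.118 (SD, n = 6 each). Its normalized log2 fold change was 1.57 ± 0.45 (SE), but its deposited values overlapped and its change on the deposited scale was 0.87.

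AT1G79080 was lower at low CO2. Its normal CO2 samples lay close together, at 0.483 (lowest), 0.590 (median) and 0.613 (highest), a coefficient of variation of 8.30%. At low CO2 the intensities were 0.0396, 0.0557 and 0.126, a coefficient of variation of 45.8%, and all 6 were under the 25th percentile of mean signal (0.227). The highest of them, replicate 4, was 3.84 times below the lowest normal CO2 sample. The means were 0.576 ± 0.0478 and 0.0684 ± 0.0313 (SD, n = 6 each), and the log2 fold change was -2.53 ± 0.29 (SE). It was -3.18 on the deposited scale and -1.93 with a pseudocount of 0.0493. Same-numbered samples differed by -3.25 to -1.56, replicate 4 having the smallest difference. Its place in the array moved from the 52.7th to the 12.5th percentile.

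AT4G14050, the mitochondrial editing factor gene, was lower at low CO2 as well. It had intensities of 5.54 (lowest), 5.84 (median) and 8.73 (highest) at normal CO2 and of 1.67, 2.37 and 2.79 at low CO2. At normal CO2 replicates 3 and 4 stood above the other samples, at 8.73 and 8.36 against at most 5.90. At low CO2 replicates 5 and 6 were lowest, at 1.67 and 1.84 against at least 2.34. The lowest normal CO2 sample was 1.99 times the highest low CO2 sample. The means were 6.66 ± 1.47 and 2.30 ± 0.457 (SD, n = 6 each), and the log2 fold change was -1.51 ± 0.16 (SE), or -1.54 on the deposited scale. In same-numbered samples it ran from -1.81 to -1.07. The gene stayed among the brighter probes, at the 98.4th percentile at normal and the 92.2nd at low CO2.

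In all 5 genes the 6 same-numbered differences had a single sign. This follows from normalized values that did not overlap between the groups, whichever samples are matched, and adds nothing to it. Adjacent numbers of a group (1 and 2, 3 and 4, 5 and 6) often lay close to each other (consensus correlation of 0.567 over all probes), so the 6 samples of a group may not be independent. With adjacent numbers averaged, 3 against 3, the SE of the log2 fold change was 0.66 for AT5G39980, 0.40 for AT1G79080, 0.27 for AT3G26630 and 0.26 for AT4G14050, all larger than above. For AT3G13150 it was 0.31, about as before.

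Fold changes on this array also followed the place of a probe in its numbering, which repeats and was divided into 48 bins of 6 numbers. The median over all probes of a gene's bin, its own included, shows the size of this trend beside each gene. The bin of AT5G39980 had a median log2 fold change of 0.43 over its 71 probes and that of AT3G13150 one of 0.56 over 71. The bin of AT1G79080 had a median of -0.43 over 71 probes. AT3G26630 and AT4G14050 shared a bin, with a median of -0.45 over 63 probes, although AT3G26630 was higher and AT4G14050 lower at low CO2. With each sample's bin median taken off, the log2 fold changes were 2.97 for AT5G39980, 2.39 for AT3G13150, 2.04 for AT3G26630, -2.09 for AT1G79080 and -1.08 for AT4G14050. No sign changed, the change of AT3G26630 became larger, and the other changes became smaller.

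**Figure D2:**
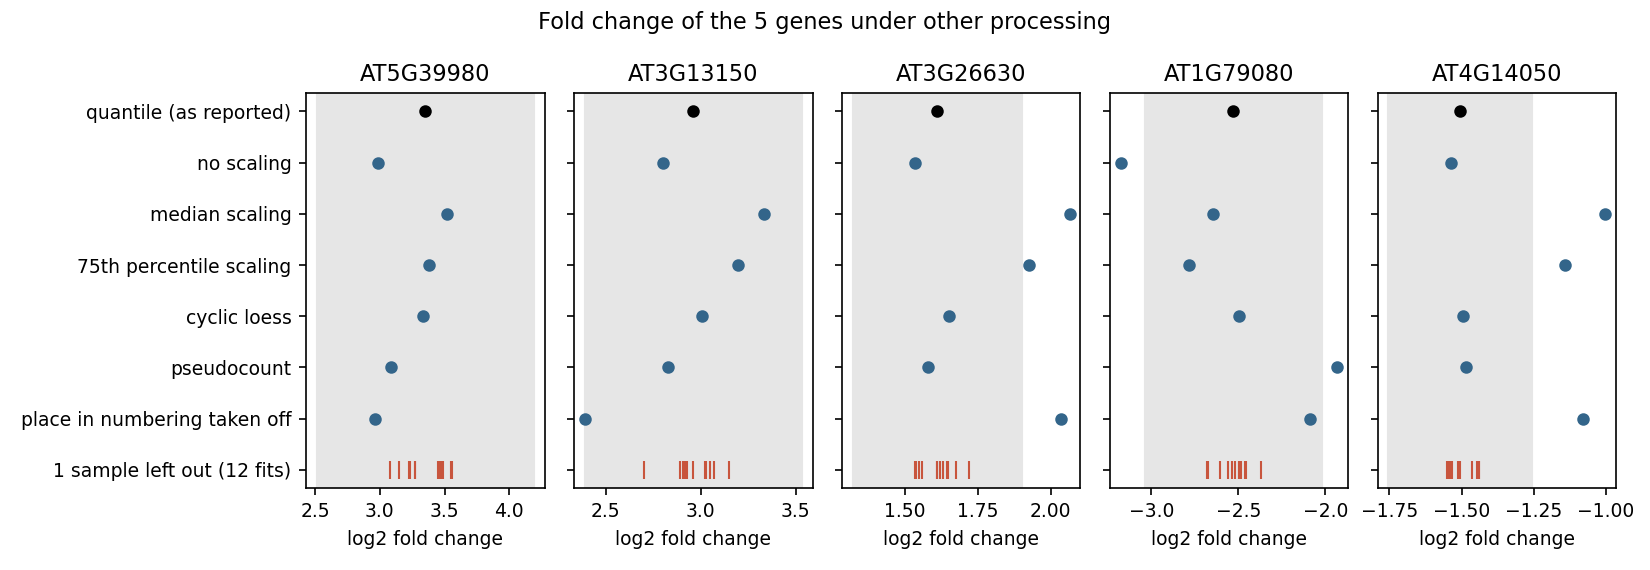
Log2 fold change (horizontal axis, low minus normal CO2, a separate range for each gene) of the 5 genes under quantile normalization (black), 6 other settings (blue) and with each sample left out in turn (red ticks). The grey band is 1 pooled SD between replicates on either side of the reported value, and points outside it are found for AT3G26630, AT1G79080 and AT4G14050, always on the same side of 0.

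A further 16 genes known to belong to the family had a probe of their own. They were listed from background knowledge, so a member of the family may be missing. Of all 21, limma put 6 higher and 3 lower at low CO2 (adjusted p under 0.05), which is 28.6% and 14.3%, against 18.9% and 23.5% of all 3439 probes. The 5 genes above, picked for this contrast, make up 5 of these 9 and say nothing about the family. Among the other 16 genes, 3 were higher (18.8%), 1 was lower (6.25%) and 12 did not pass. The median log2 fold change was 0.29 over the 21 genes and 0.21 over the 16, against -0.05 over all probes. The median size without regard to sign was 0.48 over the 16 and 0.77 over all probes. On the deposited scale 4 of the 21 were higher (19.0%) and 7 lower (33.3%), and of the 16 genes 1 was higher and 5 were lower, against 10.8% and 37.9% of all probes. The balance of higher and lower genes thus depended on the scaling. No overlap of deposited values was found in 1 of the 16 genes with higher values at low CO2 (6.25%) and in 2 with lower values (12.5%), against 7.24% and 27.3% of all probes. With adjacent numbers averaged 3 of the 16 passed (18.8%), against 18.0% of all probes.

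**Figure D3:**
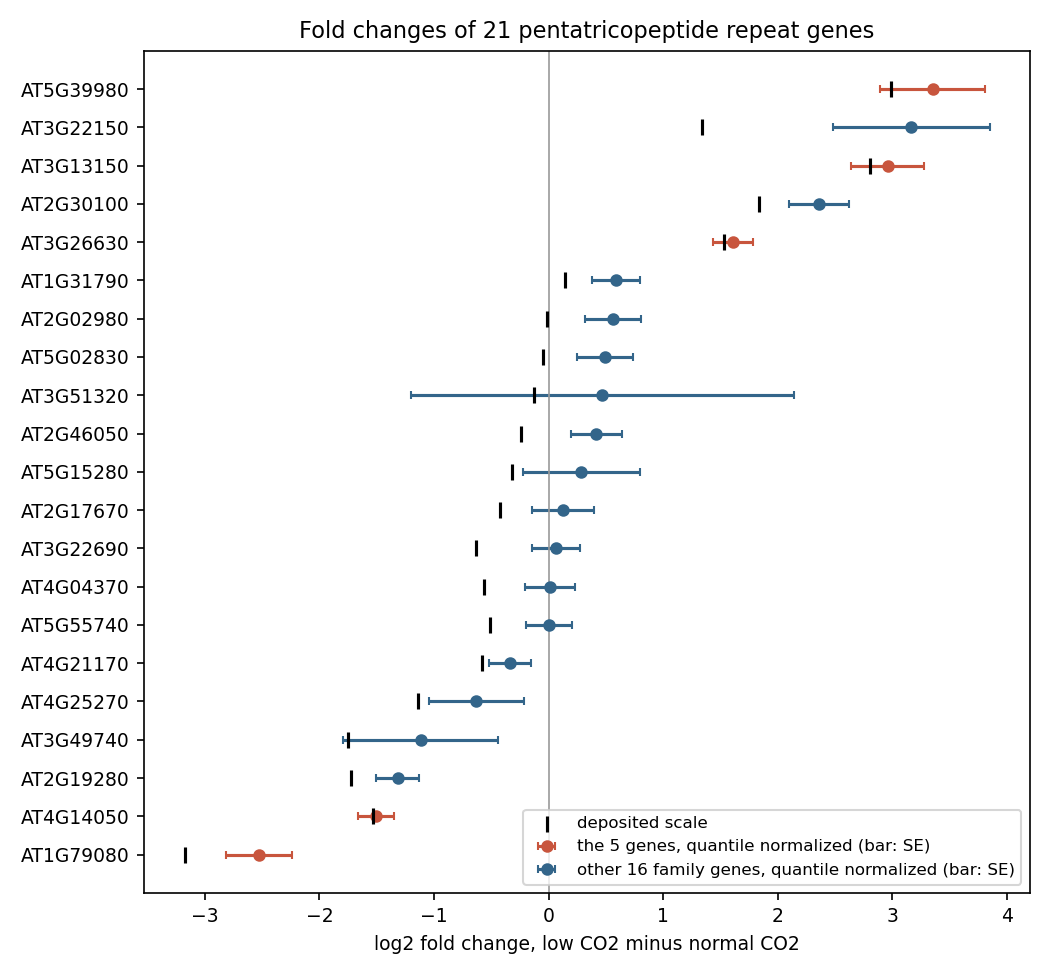
Log2 fold change (horizontal axis, low minus normal CO2) of the 21 pentatricopeptide repeat genes after quantile normalization, with bars of 1 SE, red for the 5 genes and blue for the other 16, and black ticks for the deposited scale. AT3G22150 and AT2G30100 lie among the 3 higher genes, and most ticks lie to the left of their point.

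Of the other genes past the threshold, AT2G30100, whose protein is placed in the chloroplast, rose. Its intensities were 0.114 (lowest), 0.255 (median) and 0.342 (highest) at normal CO2 and 0.483, 0.789 and 1.09 at low CO2, with no overlap. It rose by 2.36 ± 0.26 (SE, limma adjusted p = 3.3e-05), or 1.84 on the deposited scale, and passed in all 23 alternative fits, with adjusted p from 4.42e-06 to 0.0190. AT3G22150, whose product takes part in editing of chloroplast and mitochondrial transcripts, rose by 3.17 ± 0.68 (adjusted p = 0.00306). It was dim, at 0.0641 ± 0.0334 and 0.167 ± 0.0866 (SD, n = 6 each), and its deposited values overlapped. On the deposited scale it was at 1.34 and missed the threshold (limma adjusted p = 0.0696), and so it did with adjacent numbers as a random block (adjusted p = 0.0820), the highest p of its 22 alternatives, which began at 0.000723.

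AT2G19280 fell, with intensities of 1.12 (lowest), 1.32 (median) and 1.64 (highest) at normal CO2 and of 0.319, 0.357 and 0.575 at low CO2. Its groups did not overlap, and its log2 fold change was -1.32 ± 0.19 (SE, limma adjusted p = 0.000199). It was -0.75 with the bin median taken off (adjusted p = 0.00636) and -1.73 on the deposited scale (adjusted p = 2.25e-05). It passed in all 23 alternatives, with adjusted p from 2.25e-05 to 0.0373. AT1G31790 was at 0.59 ± 0.21 (adjusted p = 0.0424) and its groups overlapped. The call of AT1G31790 was lost in 9 of 12 fits with a sample left out. It was also lost when unscaled (0.15, adjusted p = 0.596) and with the bin median taken off (0.33, adjusted p = 0.291). Adjacent numbers averaged (adjusted p = 0.242) or as a random block (adjusted p = 0.0904) lost it too. AT1G31790 passed in 10 of 23 alternatives, with adjusted p over all of them from 0.00869 to 0.596.

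Of the 12 genes that did not pass, the 3 brightest were AT4G21170 at -0.34 ± 0.18 (SE, limma adjusted p = 0.157), AT4G25270 at -0.63 ± 0.41 (adjusted p = 0.247) and AT5G55740 at 0.0041 ± 0.20 (adjusted p = 0.989). AT4G25270 encodes OTP70, a factor for splicing in the chloroplast, and AT5G55740 encodes CRR21, which directs the editing of a plastid NDH transcript. AT5G55740 had intensities of 0.562 to 0.719 at normal and 0.266 to 0.615 at low CO2, with overlap. Scaling mattered for these genes. On the deposited scale AT4G21170 passed at -0.58 (adjusted p = 0.0226) and AT4G25270 at -1.14 (adjusted p = 0.0322), while AT5G55740 was at -0.51 (adjusted p = 0.0643). With the bin median taken off AT4G21170 turned to 0.33 (adjusted p = 0.133). The other known editing factors of the chloroplast were OTP85 (AT2G02980), at 0.56 ± 0.24 (adjusted p = 0.0832), and YS1 (AT3G22690), at 0.07 ± 0.21 (adjusted p = 0.821). YS1 turned to -0.63 on the deposited scale (adjusted p = 0.00515). With the replicate number as a block, OTP85 passed (adjusted p = 0.0175), as did AT3G49740, at -1.11 ± 0.68 (adjusted p = 0.210 without and 0.00701 with the block). On the deposited scale OTP85 was at -0.02 (adjusted p = 0.953) and AT3G49740 at -1.75 (adjusted p = 0.103). OTP85 also passed without normal CO2 replicate 3 (0.73, adjusted p = 0.0132), the lowest adjusted p of its 23 alternatives. For AT3G49740 the range was 0.00701 to 0.401.

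Other factors of organelle RNA were nearly absent among probes of 1 gene. Of 8 CRM-domain splicing factors, proteins that help organelle introns to fold and splice, AT3G27550 was measured. It was at -0.41 ± 0.29 (SE, limma adjusted p = 0.277). It passed at -0.86 on the deposited scale (adjusted p = 0.0371) and at -1.16 with the bin median taken off (adjusted p = 0.000233). A probe of 1 gene was found for 0 of 9 MORF editing factors, 0 of 6 plastid sigma factors, 0 of 3 phage-type organelle RNA polymerases, 0 of 7 chloroplast ribonucleoproteins and 0 of 5 organelle ribonucleases.

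The genes with the most similar course over the 12 samples were found from normalized log2 values centred on each gene's mean, by the root mean square of the difference. This distance includes the change between the groups that chose the 5 genes and is given as a description. For AT5G39980 the nearest were AT3G23940, encoding dihydroxy-acid dehydratase, at a distance of 0.66, and AT2G35390, encoding a phosphoribosyl pyrophosphate synthetase, at 0.76, against a median of 2.03 over 690 genes. Both, like AT5G39980, were lowest in normal CO2 replicates 1 and 2. So were AT3G26630 and the 2 genes nearest to it. For AT3G13150 the nearest were AT1G74070, encoding a cyclophilin, at 0.56 and AT5G11650 at 0.63 (median 1.78). Neither had the low value of replicate 3 in the low CO2 group.

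AT3G26630 was closest to AT4G32060, encoding a mitochondrial calcium uptake protein, at 0.20 and to AT3G60590 at 0.27 (median 1.12). AT1G79080 was closest to AT2G30320, encoding a pseudouridine synthase, at 0.31 and to AT3G11150 at 0.43 (median 1.54). AT4G14050 was closest to AT2G46910, encoding a fibrillin, at 0.19 and to DRT101, encoding a phosphoacetylglucosamine mutase, at 0.19 (median 1.04). None of these 10 nearest genes was another of the 5. Of the 10, 0 lay in the same bin of the probe numbering as their partner. With many bins, sharing a bin is rare by chance, so this count cannot tell whether likeness followed the place of the probes. Whether probes with near numbers had similar courses was not tested. Among the 5 themselves the smallest distance was 0.68, between AT1G79080 and AT4G14050. The higher genes lay 0.99 to 1.05 from each other.

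**Figure D4:**
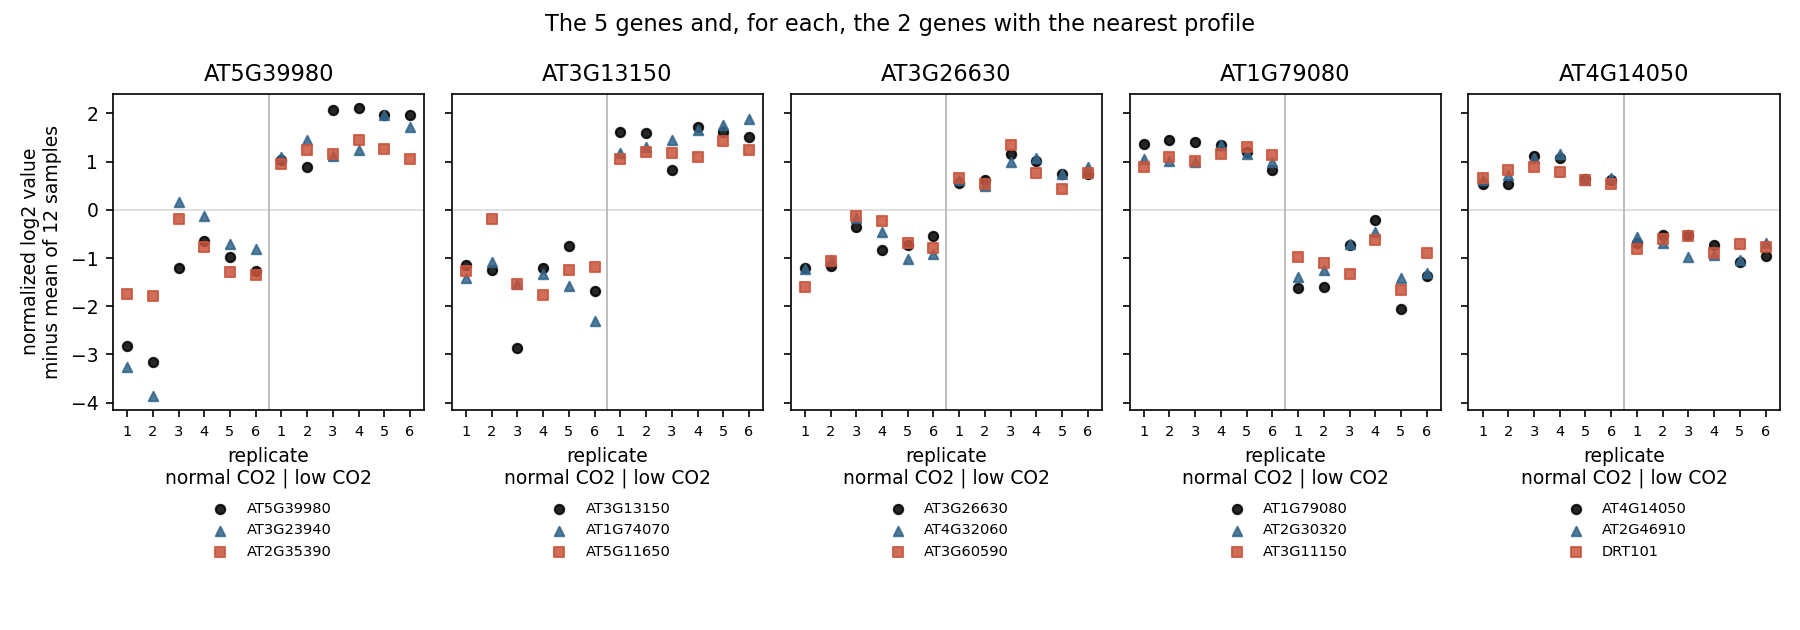
Normalized log2 value minus the gene's mean over 12 samples (vertical axis) for each of the 5 genes (black) and the 2 genes nearest to it (blue triangles, red squares) in replicates 1 to 6 of normal CO2 (left of the line) and low CO2 (right). AT4G14050 and AT3G26630 have the smallest distances to their partners. AT3G26630 still lies below both of its partners in normal CO2 replicates 2, 3 and 4, most clearly in 4, and in low CO2 replicates 1 and 6. AT3G13150 lies below both of its partners in replicate 3 of both groups and in normal CO2 replicate 2.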

How the data were processed

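Total RNA of 12 samples was hybridised to arrays. The deposited intensity values are on a linear scale, and no source used here gives how the authors scanned, background-corrected or scaled them. The unit was read from the values, and the upper bound of 100 was reached by none of the 5 genes. Genes were named from a platform annotation of 1562 probes, 692 with 1 gene, of which 690 matched TAIR10.1, used for names and neighbours only. The brightest probe stood for a gene. Zeros took the smallest positive intensity of the same array, log2 was taken and arrays quantile normalized. Groups were compared over all 3439 probes with limma 3.58.1 in R 4.3.3 (two-sided, 6 against 6, Benjamini-Hochberg, threshold 0.05). The fit was first tried on simulated data with independent samples. That trial does not cover the error rate where adjacent numbers resemble each other, as they did here. Same-numbered samples deviated together from their group means (correlations of 0.128 to 0.214, each above 0.1). Samples of different numbers were not compared across the groups, so whether the numbers in the titles pair the samples is not settled. Same-numbered differences are therefore a description. SEs and adjusted p-values are from the fit without pairing unless another fit is named.

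Members and lists were chosen with earlier results of these data known. In a departure from the plan, the list of 21 family genes came from known family membership, since the tables hold no gene descriptions. Protein features were not analysed here. Named were the 5 genes, other family genes past the threshold, the 3 brightest that did not pass, genes with a sample that stands apart, and the 2 nearest profiles per gene. OTP85, YS1 and AT3G49740 were named after their values were seen. Alternatives were other scalings, a pseudocount, a filter on dim probes, a trended robust prior, a replicate block, adjacent numbers averaged or as a random block, the place in the numbering taken off, and each sample left out.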

Additional observations from a re-analysis of the deposited data

Results flagged for a closer look

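In 42 sets of 6 normalized log2 values from the 21 family genes, a sample was called far from the rest where its gap to the nearest sample, as a share of the range, exceeded the 95% critical value of Dixon's test. Chance gives about 2.1 such sets, and 4 were found. Intensities given here and in the next paragraph are as deposited, while each gap is that of the normalized log2 values. Replicate 3 of AT3G13150 at low CO2 stood at 2.58 while the other samples held 4.07 to 4.87, a gap of 0.780 of the range. Without it the log2 fold change of AT3G13150 stayed within 2.70 to 3.15, the range over all fits that left out a sample.

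Among the other genes, AT3G51320 had a value of 0 in normal CO2 replicate 4 against 0.217 to 0.414, a gap of 0.953. The 0 was replaced before taking log2, and the log2 fold change of AT3G51320 was 0.47 ± 1.67 (SE, limma adjusted p = 0.846) with that sample and -1.27 (adjusted p = 0.0207) without it, the adjusted p over all 22 alternatives running from 0.0207 to 0.975. AT4G04370 had 0.496 in low CO2 replicate 4 against 0.330 to 0.359, a gap of 0.691. AT5G02830 had 0.239 in low CO2 replicate 4 against 0.379 to 0.414, a gap of 0.785. Neither AT4G04370 (0.01 ± 0.22, adjusted p = 0.977) nor AT5G02830 (0.49 ± 0.25, adjusted p = 0.134, and -0.05 on the deposited scale) passed in a fit that left out a sample. AT4G04370 passed in opposite directions on the deposited scale (-0.57, adjusted p = 0.0456) and with the place in the numbering taken off (0.74, adjusted p = 0.00327), and its adjusted p ran from 0.00327 to 0.998 over 23 alternatives.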

How the results depend on the processing

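The 5 genes kept their direction in all 23 alternatives, but many of these could hardly change it. The replicate block, adjacent numbers averaged or as a random block, the dim filter and the robust prior leave these fold changes as they are. Leaving out a sample could hardly turn the sign of groups that did not overlap. AT5G39980 (2.97 to 3.56) and AT3G13150 (2.39 to 3.34) moved by less than 1 SD between replicates. AT3G26630 was at 2.07 with median scaling, 1.93 with scaling to the 75th percentile and 2.04 with the place in the numbering taken off. AT4G14050 was at -1.003, -1.14 and -1.08 in the same settings, and AT1G79080 at -3.18 on the deposited scale and -1.93 with the pseudocount. The family count of 3 lower genes became 7 on the deposited scale. All other settings gave 3 or 4 lower and 4 to 7 higher genes. With a replicate block 7 genes of the family were higher and 4 lower, where 6 and 3 were found without it. The block changed the call of OTP85 and AT3G49740 and of no other family gene. Without the dim probes 18 of the 21 family genes were tested. Depth is not defined for these intensities, and AT1G79080 at low CO2 lay in the dimmest part of the arrays.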
